A study of Mus musculus with 12 samples.

Results

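The mitochondrial beta-oxidation enzymes examined here are the products of 10 genes, Acadvl, Acadl, Acadm, Acads, Hadha, Hadhb, Echs1, Hadh, Acaa2 and Etfdh, out of 19938 genes that could be named on the array. The genes were chosen by name, and a gene was taken where a transcript cluster (the set of probes that the array assigns to a gene) carried its symbol and no other. This rule gave 11 of the 28944 transcript clusters, 1 for each gene and an additional one for Hadhb. None of the members was lost to a filter, since every transcript cluster had a value on every array.

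The muscles came from male germ-free mice of the strain Tsl;ICR[GF], labeled as 11 weeks old, which were colonized by gavage of feces and fed a high-fat diet. The 6 recipients of feces from trained donors (RT), which had run on a treadmill, were compared with the 6 recipients of feces from sedentary donors (RS) at 1 week after the first gavage, following a short fast. Gastrocnemius total RNA (250 ng) was labeled with biotin and hybridized to Affymetrix Mouse Gene 1.0 ST arrays, 1 array per mouse. Germ-free origin, high-fat diet, sex, strain and tissue were shared by both groups, so that the donor was the only labeled difference. By the methods, recipients shared cages and a common fecal preparation, so that these cannot be told apart from donor training, and the p-values describe the spread between these mice alone. Values are log2 signals after robust multi-array averaging (RMA), on which a difference of 1 is a doubling of signal.

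Beta-oxidation shortens fatty acyl-CoA inside mitochondria by repeating the same steps. An acyl-CoA dehydrogenase introduces a double bond and passes electrons through electron transfer flavoprotein to the respiratory chain, an enoyl-CoA hydratase adds water, a hydroxyacyl-CoA dehydrogenase oxidizes the product, and a thiolase releases acetyl-CoA. The very-long-chain dehydrogenase and the trifunctional protein are bound to the inner membrane, whereas the other dehydrogenases and the enzymes for shorter chains are soluble in the matrix. In skeletal muscle the pathway supplies energy during fasting and endurance exercise, it is richer in slow-twitch oxidative fibers, and its genes are known targets of the peroxisome proliferator-activated receptors (PPARs) and estrogen-related receptors.

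Sequences upstream of the members are shown as a description. Whether they bear on the covariation of the 10 genes between mice, described below, was not tested. RefSeq promoter windows of 300 bases (250 before the start site and 50 after it, build GRCm38.p6) were matched for 9 members, and not for Acaa2. Hadha and Hadhb encode the subunits of 1 enzyme complex and lie head to head, with start sites 273 bases apart, and the Hadhb window is printed with the 228 bases that also belong to the Hadha window in capitals. In the Acadm and Etfdh windows, capitals mark the core of the nuclear respiratory factor 1 element (GCATGCGC, in either orientation), the nuclear receptor half-site (AGGTCA, in either orientation) in Acadm and the CCAAT box in Etfdh.
Hadhb (chr5:30155003-30155302, strand plus): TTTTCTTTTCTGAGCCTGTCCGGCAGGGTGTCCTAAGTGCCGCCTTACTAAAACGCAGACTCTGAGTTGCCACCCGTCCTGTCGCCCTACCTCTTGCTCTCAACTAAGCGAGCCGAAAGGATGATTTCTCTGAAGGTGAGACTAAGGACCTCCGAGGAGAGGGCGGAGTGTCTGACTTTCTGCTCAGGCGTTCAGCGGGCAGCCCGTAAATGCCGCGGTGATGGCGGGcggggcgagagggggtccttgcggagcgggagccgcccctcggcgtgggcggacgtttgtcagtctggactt
Acadm (chr3:153944594-153944893, strand minus): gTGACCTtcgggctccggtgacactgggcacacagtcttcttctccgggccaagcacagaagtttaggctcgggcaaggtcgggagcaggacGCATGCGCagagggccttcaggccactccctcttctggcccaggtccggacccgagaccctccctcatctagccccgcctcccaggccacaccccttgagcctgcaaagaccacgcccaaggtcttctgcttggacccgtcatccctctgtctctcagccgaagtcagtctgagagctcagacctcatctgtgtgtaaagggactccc
Etfdh (chr3:79628718-79629017, strand minus): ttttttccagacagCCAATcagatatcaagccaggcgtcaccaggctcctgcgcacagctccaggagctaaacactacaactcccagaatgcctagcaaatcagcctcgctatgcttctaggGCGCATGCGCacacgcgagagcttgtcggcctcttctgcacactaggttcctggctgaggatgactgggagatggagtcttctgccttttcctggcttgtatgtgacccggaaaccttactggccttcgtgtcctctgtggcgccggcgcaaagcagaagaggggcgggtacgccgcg
The nuclear respiratory factor 1 core was found in 2 of the 9 windows, these 2, and in 2.71% of 32851 mouse promoter windows searched in the same way on both strands. The half-site AGGTCA was found in Acadm, Acadvl and Echs1 (16.3% of all windows), and within it the longer AAGGTCA in Acadm alone (4.72%). A GC box (GGGCGG) was present in 7 of 9 windows (35.7%) and the CCAAT box in Etfdh and Hadh (37.4%). The GC box of the Hadha window lies in the region shared with Hadhb, so that the same site counts for both windows. The spaced pair AGGTCANAGGTCA (0.0396%), the estrogen-related receptor element TCAAGGTCA (0.423%), which contains the half-site, and the E-box CACGTG (7.15%) had no match in these windows. A match describes letters and not a bound site.

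Expression of the beta-oxidation enzymes was not distinguishable between RT and RS mice. By limma, with a call at an unadjusted p under 0.05 and an adjusted p under 0.1, 0 of 10 genes were higher in RT and 0 were lower, and 0 had an unadjusted p under 0.05; the methods' t-test also called 0. The 95% intervals of the differences reached from −0.36 (Acadl) to 0.64 (Acaa2). Over all transcript clusters, 11.9% were called higher in RT and 13.0% lower, and among the 4365 that were at least as bright as the dimmest member the shares were 25.1% and 7.22%. The RT mean exceeded the RS mean in 9 of 10 members, the exception being Acadl, where the means were equal. An RT mean above the RS mean was found in 47.5% of all transcript clusters and in 74.3% of the bright ones, and the median difference was 0.14 for the members, −0.01 for all transcript clusters and 0.14 for the bright ones. No member separated the groups without overlap, against 2.69% of transcript clusters that did so with RT above RS and 3.10% with RT below RS (5.64% and 3.39% among the bright ones).

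**Figure D1:**
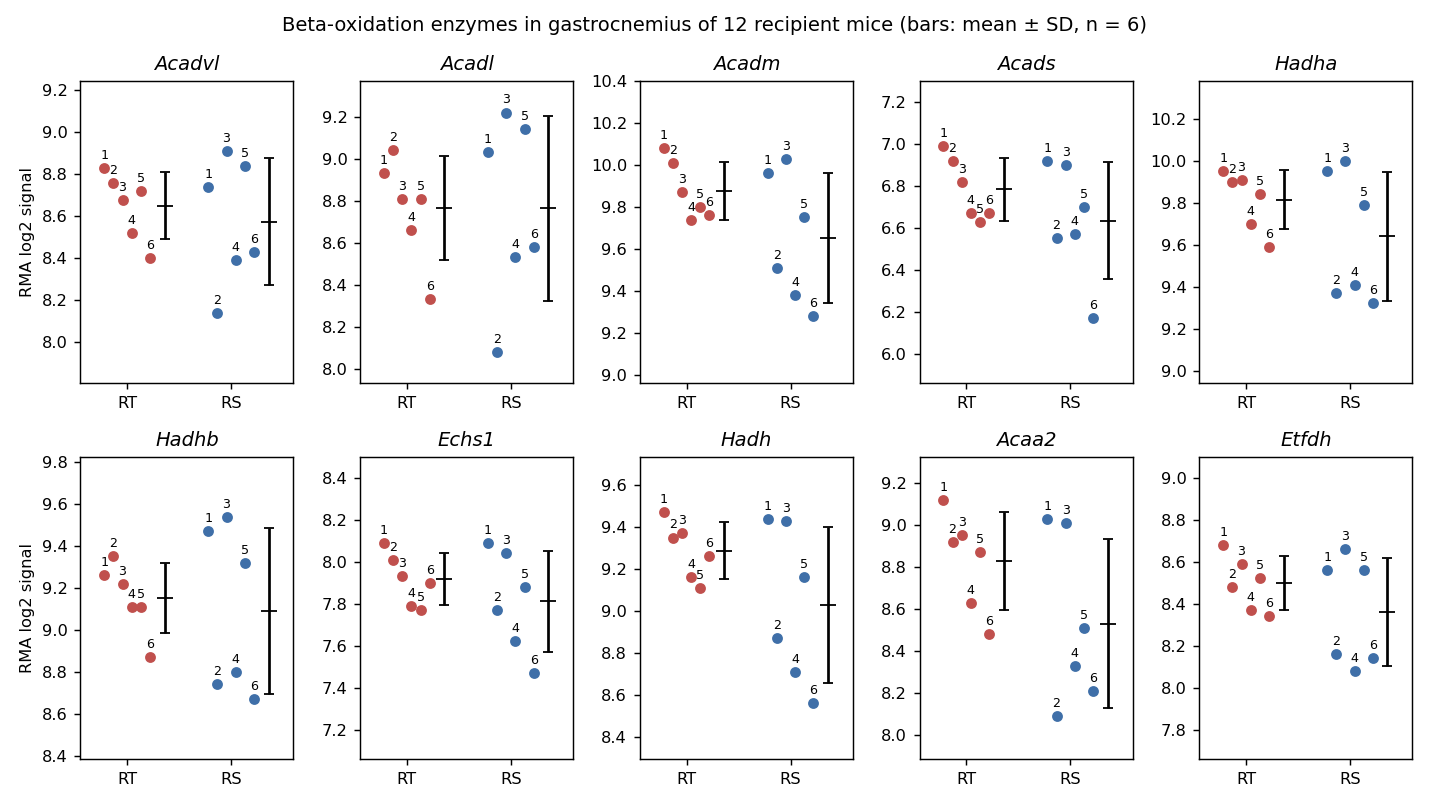
RMA log2 signal of the 10 enzymes in every mouse, with RT mice left and RS mice right in each panel, the mouse number above each point, and the mean ± SD (n = 6 each) as a bar. Both groups overlap in every panel, and RS-2, RS-4 and RS-6 are the 3 lowest RS mice for all 10 genes.

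Acyl-CoA dehydrogenases catalyze the initial step and differ in the chain length they accept. Acadl, the long-chain enzyme, had log2 signals of 8.93, 9.04, 8.81, 8.66, 8.81 and 8.33 in RT-1 to RT-6, against 9.03, 8.08, 9.22, 8.53, 9.14 and 8.58 in RS-1 to RS-6. RT-6 and RS-2 were low and RS-3 and RS-5 lay above every RT mouse, so that the RS values enclosed all RT values. The difference was 0.00 ± 0.17 (SE; 95% interval −0.36 to 0.36; adjusted p = 1.0 by limma). Acadvl, the very-long-chain enzyme of the inner membrane, followed the same mice. Its lowest, median and highest signals were 8.40, 8.70 and 8.83 in RT and 8.14, 8.59 and 8.91 in RS, and it differed by 0.08 ± 0.13 (SE; adjusted p = 0.698). Here too, RS mice lay on both sides of the RT range, with 2 below it and 2 above it.

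Acadm, the medium-chain enzyme, lay between 9.74 and 10.08 in RT mice with a median of 9.84, and between 9.28 and 10.03 in RS mice with a median of 9.63. RS-2, RS-4 and RS-6 lay below all RT mice, RS-1, RS-3 and RS-5 within the RT range, and RT-1 above all RS mice. The difference of 0.23 ± 0.13 (SE; 95% interval −0.04 to 0.49) did not pass the test (adjusted p = 0.22 by limma; p = 0.136 by the two-sided exact permutation test). Acads, the short-chain enzyme and the dimmest member, had a lowest, median and highest signal of 6.63, 6.75 and 6.99 in RT and 6.17, 6.64 and 6.92 in RS. RS-2, RS-4 and RS-6 lay below all RT mice, with RS-6 farthest, and the difference was 0.15 ± 0.12 (SE; adjusted p = 0.398).

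The mitochondrial trifunctional protein carries out the remaining steps on long chains, with Hadha as the hydratase and dehydrogenase subunit and Hadhb as the thiolase subunit. Hadha had a lowest, median and highest signal of 9.59, 9.87 and 9.95 in RT, against a lowest of 9.32 and a median of 9.60 in RS, a difference of 0.18 ± 0.12 (SE; adjusted p = 0.342). Hadhb had 8.87, 9.17 and 9.35 in RT and 8.67, 9.06 and 9.54 in RS, and differed by 0.06 ± 0.15 (SE; adjusted p = 0.797). For both subunits RS-2, RS-4 and RS-6 lay below every RT mouse while RS-3 lay above every RT mouse. The other Hadhb transcript cluster gave a difference of 0.04 (adjusted p = 0.869). Both Hadhb transcript clusters carry the same transcript accessions, and the reference lists a pseudogene, Hadhb-ps, on another chromosome, whose signal cannot be told apart from that of Hadhb.

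In the matrix, Echs1 hydrates short and medium chains, Hadh oxidizes the hydroxyacyl product and Acaa2 is the thiolase. Acaa2 had the largest difference among the members. Its signals were 9.12, 8.92, 8.95, 8.63, 8.87 and 8.48 in RT-1 to RT-6, against 9.03, 8.09, 9.01, 8.33, 8.51 and 8.21 in RS-1 to RS-6. RS-1 and RS-3 ranked with the high RT mice, and RS-2, RS-4 and RS-6 lay below every RT mouse. The difference of 0.30 ± 0.16 (SE; 95% interval −0.04 to 0.64), a fold of 1.23, did not pass the test (adjusted p = 0.206 by limma; exact permutation p = 0.149). With a block for the replicate number, Acaa2 passed (adjusted p = 0.0974), although the numbers did not pair the mice.

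Hadh showed the widest contrast in spread. Its signals were 9.47, 9.35, 9.37, 9.16, 9.11 and 9.26 in RT-1 to RT-6, against 9.44, 8.87, 9.43, 8.71, 9.16 and 8.56 in RS-1 to RS-6. The same 3 RS mice were lowest, and RS-1 and RS-3 lay close to RT-1. The SD was 0.14 in RT and 0.37 in RS, a ratio of 2.74, and the difference of means was 0.26 ± 0.14 (SE; adjusted p = 0.211). Without RS-1, Hadh (adjusted p = 0.0787) and Acaa2 (0.069) were called higher in RT, and without RS-3, Acadm (0.0926), Hadh (0.0966) and Acaa2 (0.0878) were. Echs1 had a lowest, median and highest signal of 7.77, 7.92 and 8.09 in RT and 7.47, 7.83 and 8.09 in RS, and differed by 0.10 ± 0.11 (SE; adjusted p = 0.522).

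Etfdh, an iron-sulfur flavoprotein, hands the electrons of the acyl-CoA dehydrogenases to ubiquinone. Its lowest, median and highest signals were 8.34, 8.50 and 8.68 in RT and 8.08, 8.36 and 8.66 in RS. Again RS-2, RS-4 and RS-6 lay below all RT mice, and the difference was 0.14 ± 0.11 (SE; adjusted p = 0.41). The annotated Etfdh and Ppid genes overlap by 23 bases.

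**Figure D2:**
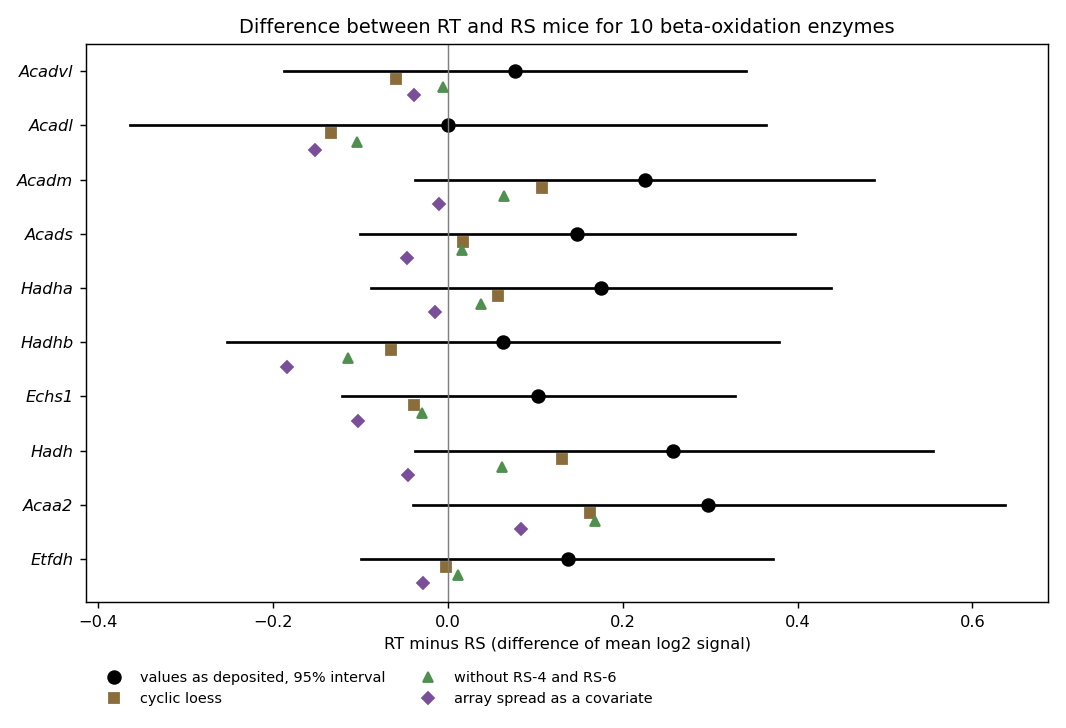
Difference of mean log2 signal, RT minus RS, for each enzyme from the deposited values (circles, with the 95% interval of limma as lines) and under 3 other settings (squares, triangles and diamonds). All 10 intervals include 0, and in the fit with array spread as a covariate Acaa2 alone stays to the right of 0, at 0.08.

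The sign of some of these differences depended on the treatment of the arrays. Of the 25 alternatives, it turned in 7 for Hadhb, 5 for Acadvl, 3 for Echs1 and 2 for Etfdh. After cyclic loess the differences of Acadvl, Hadhb, Echs1 and Etfdh were below 0, without RS-4 and RS-6 those of Acadvl, Hadhb and Echs1 were, and in a fit with array spread (the SD of an array's log2 signal over all transcript clusters) as a covariate those of 8 members, all but Acadl and Acaa2, were. Acadl, equal in both groups as deposited, was below 0 in these 3 settings. For Acadm, Acads, Hadha and Hadh the sign turned in 1 alternative, the spread covariate. The arrays of lowest spread, RS-4 and RS-6, were both from RS mice, so that this covariate is not independent of the group. Acaa2 kept a positive difference in all 25 alternatives (0.08 to 0.40). Adjusted p-values of the members over these alternatives lay between 0.069 and 1.0.

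A pattern shared by all members was a wide and parallel spread among RS mice. The SD was larger in RS than in RT for 10 of 10 members, with a ratio between 1.74 and 2.74 and a median of 1.97. A larger SD in RS was also found for 69.8% of all transcript clusters and for 87.8% of the bright ones, where the median SD was 0.11 in RT and 0.21 in RS, compared with 0.15 in RT and 0.31 in RS for the members. Averaged over the 10 genes, the deviation from each gene's mean was 0.26, 0.19, 0.13, −0.05, 0.04 and −0.12 in RT-1 to RT-6, and 0.24, −0.36, 0.29, −0.30, 0.08 and −0.40 in RS-1 to RS-6. RS-2, RS-4 and RS-6 were the 3 lowest RS mice in 10 of 10 genes and the 3 lowest of all mice in 7, and RS-1 or RS-3 was the highest RS mouse in 10 of 10. Among RT mice, RT-1 was highest in 8 genes.

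**Figure D3:**
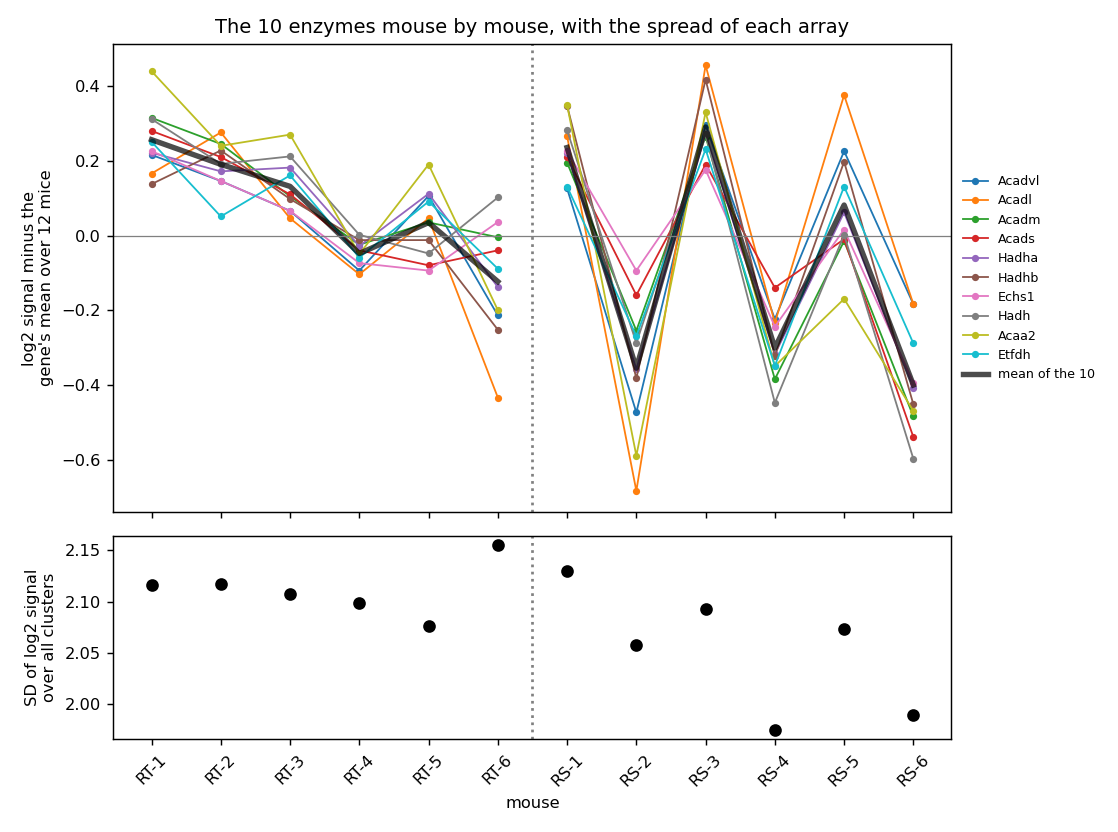
Log2 signal of each enzyme minus its mean over the 12 mice (upper panel, colored lines that join the mice of a group to guide the eye; the thick line is the mean of the 10 genes), and the SD of log2 signal over all transcript clusters of each array (lower panel). Among RS mice the 10 lines have their low points at RS-2, RS-4 and RS-6. From RT-5 to RT-6 the lines part, with Acadl falling while Echs1 and Hadh rise. The spread of the arrays of RS-4 and RS-6 is below 2.00.

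The arrays of RS-4 and RS-6 stood apart from the others. Their spread was 1.98 and 1.99, whereas RT mice had 2.08 to 2.16 and the remaining 4 RS mice had 2.06 to 2.13, while the medians of all arrays lay between 4.40 and 4.63. RS-2 was low in the members with a spread of 2.06. After removal of group means, Pearson's r of the members' mean with the spread of the array was 0.66 over 12 mice (Spearman's rho 0.60), −0.24 within RT and 0.84 within RS, and 0.45 without RS-4 and RS-6. The part of array spread in the members' low values was not tested.

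Between mice, the members varied together. Over the 45 pairs, the median of Pearson's r was 0.89 (0.60 to 0.98) across 12 mice with group means removed, and 0 pairs were negative. The median was 0.77 within RT (0.41 to 0.98) and 0.91 within RS (0.62 to 1.00). These correlations are descriptions, since all genes of a mouse share 1 array and its normalization. Hadha and Hadhb, which share the upstream region shown above, correlated at 0.98 (rho 0.98; 0.90 within RT, 1.00 within RS), as did Acadl with Acadvl (0.98) and Echs1 with Hadh (0.98). Hadhb went by its brighter transcript cluster, in which signal of the pseudogene Hadhb-ps cannot be told apart.

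**Figure D4:**
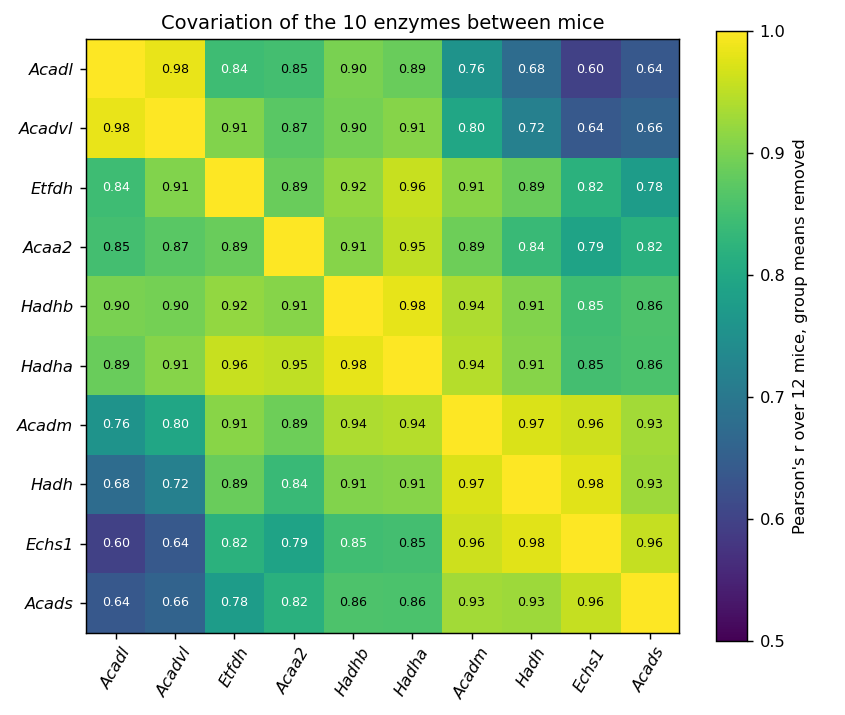
Pearson's r between each pair of enzymes over 12 mice after removal of group means, from 0.60 (Acadl with Echs1, blue) to 0.98 (yellow). Acadl and Acadvl form 1 corner of high values, and Acadm, Hadh, Echs1 and Acads form the opposite one.

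The weakest pairs joined the long-chain dehydrogenases to the short-chain enzymes, such as Acadl with Echs1 (0.60) and Acadl with Acads (0.64). The contrast was widest in RS-2, RT-6, RS-6 and RS-5. The mean deviation of Acadl and Acadvl was −0.32 in RT-6, −0.58 in RS-2, −0.18 in RS-6 and 0.30 in RS-5. That of Hadh, Echs1 and Acads was 0.03 in RT-6, −0.18 in RS-2, −0.51 in RS-6 and 0.003 in RS-5. Slow-twitch fiber markers were lowest in RT-6 and RS-2. The 9 slow-twitch markers, which include the myosin heavy chain Myh7 and the troponin Tnnt1, had a mean deviation of −1.81 in RT-6 and −0.70 in RS-2, and lay between −0.27 and 0.96 in the other mice. In RS-4 and RS-6, however, the slow-twitch mean was 0.16 and 0.34 while the mean of Acadl and Acadvl was −0.23 and −0.18. Pearson's r with the slow-twitch mean was 0.75 for Acadl (rho 0.62) and 0.70 for Acadvl (rho 0.62), compared with 0.25 for Hadh and 0.21 for Echs1, and it was 0.56 for the mean of all members. Without RT-6 and RS-2 the values of Acadl, Acadvl, Hadh and Echs1 were 0.47, 0.46, 0.31 and 0.35, so that the contrast rested on those mice.

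Most members followed 17 genes of mitochondrial content, such as citrate synthase (Cs) and succinate dehydrogenase subunit A (Sdha). Pearson's r with their mean was 0.81 for the mean of all members (rho 0.84), and was highest for Echs1 (0.96; rho 0.94), Hadh (0.93; 0.91), Acadm (0.91; 0.88) and Acads (0.91; 0.86). It was 0.80 for Hadhb, 0.80 for Hadha, 0.77 for Etfdh and 0.68 for Acaa2, and lowest for Acadvl (0.54; 0.69) and Acadl (0.49; 0.68). Without RS-4 and RS-6, the mice farthest from the median, it was 0.76 for the mean of all members and lay between 0.51 (Acadl) and 0.94 (Echs1). The members' mean correlated more closely with the mean of the endothelial markers described below, at 0.89 (rho 0.96). Only Acads, Echs1 and Hadh had a higher r with mitochondrial content than with the endothelial mean, which gave 0.73 for Acadl and 0.75 for Acadvl. The mitochondrial content mean was lowest in RS-6, at −0.36, and RS-4, at −0.21, and lay between −0.02 and 0.13 in the other 10 mice. In these bulk samples, fewer fibers of a type and less RNA per fiber cannot be told apart.

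**Figure D5:**
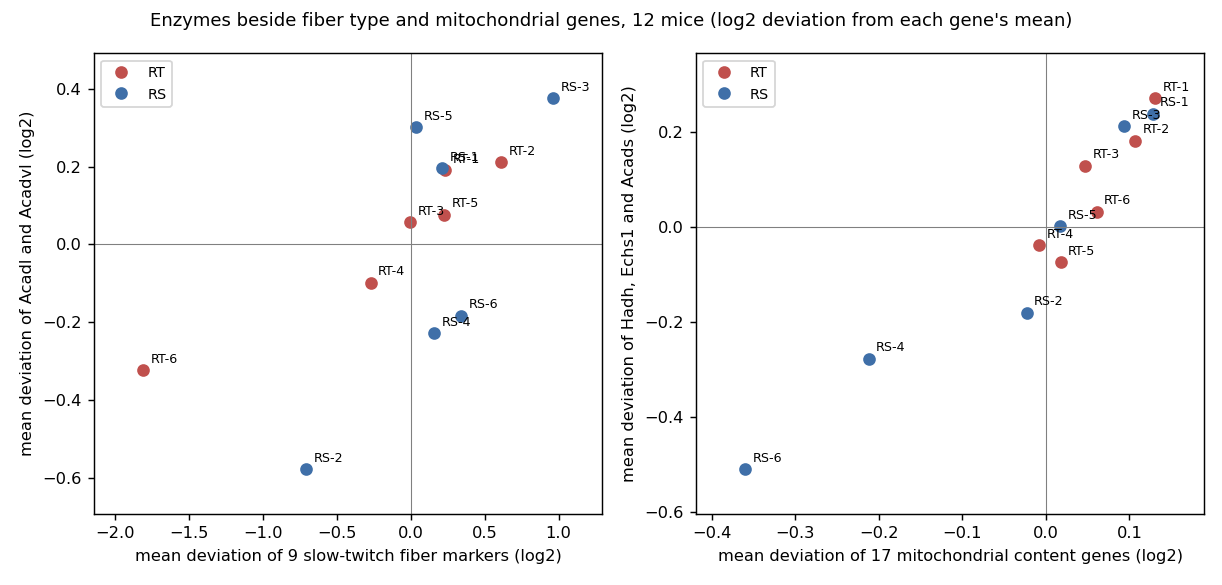
Mean log2 deviation per mouse of Acadl and Acadvl against that of 9 slow-twitch fiber markers (left), and of Hadh, Echs1 and Acads against that of 17 mitochondrial content genes (right), with RT and RS mice in different colors. RT-6 and RS-2 are the lowest mice on both axes of the left panel, and RS-4 and RS-6 those of the right panel.

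The genes outside the set whose profile was most like the members' mean over 12 mice, with group means removed, were Mdh1 (r = 0.99), the cytosolic malate dehydrogenase, Etfb (0.98), a subunit of electron transfer flavoprotein, Adk (0.98), adenosine kinase, Cd36 (0.97), a fatty acid transporter, and Ank2 (0.96), a membrane adaptor. Of 19928 genes outside the set, 58 (0.291%) had an r over 0.9 and 322 (1.62%) an r over 0.8. None of the 5 was called between RT and RS. Cd36 had log2 means of 9.23 ± 0.25 in RT and 8.91 ± 0.49 in RS (SD, n = 6 each; adjusted p = 0.242), and Etfb had 8.63 ± 0.15 in RT and 8.51 ± 0.26 in RS (adjusted p = 0.506).

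Next, genes that work beside the members were examined by lists. The list and marker counts below stand beside 11.9% of all transcript clusters called higher in RT and 13.0% called lower. Among the bright ones the shares were 25.1% and 7.22%, with a median difference of 0.14. Of 19 partner enzymes of mitochondrial fatty acid oxidation, 3 were higher in RT, 0 were lower and 16 missed the thresholds, with a median difference of 0.15. Ech1, an isomerase for unsaturated fatty acids, averaged 8.82 ± 0.18 in RT and 8.40 ± 0.27 in RS (SD; adjusted p = 0.0297), and Pccb and Pcca, the subunits of propionyl-CoA carboxylase, were higher by 0.29 (adjusted p = 0.0909) and 0.20 (0.0918). Ech1 followed the members between mice (r = 0.93), and Pccb did so less closely (0.54). Leaving out RS-4 and RS-6 left 0 of these 19 called, as did the spread covariate. Further quantile normalization, cyclic loess and array weights each called 1 higher and 1 lower.

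In the carnitine shuttle and acyl-CoA activation, which bring fatty acids to the matrix, 4 of 9 measured genes were higher in RT and 0 lower (median difference 0.25). Of the 12 genes listed, Cpt1b, Acsl1 and Acsl3 had no transcript cluster of their own symbol alone, so their levels are not known here. Acsl5, an acyl-CoA synthetase, averaged 4.67 ± 0.19 in RT and 4.16 ± 0.28 in RS (adjusted p = 0.0154). Slc25a20, the carnitine-acylcarnitine carrier, averaged 7.16 ± 0.18 in RT and 6.77 ± 0.31 in RS (adjusted p = 0.051), Crat, carnitine acetyltransferase, was higher by 0.31 (0.03) and Cpt1a, the liver form of carnitine palmitoyltransferase 1, by 0.27 (0.0489). Slc25a20 correlated with the members' mean at 0.92 and Cpt1a at −0.17. Cpt2, at the inner membrane, had a difference of 0.25 (adjusted p = 0.195). Leaving out RS-4 and RS-6 left 2 of these 9 called higher, and the spread covariate left 0.

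Among 14 genes of peroxisomal beta-oxidation, Abcd2 (0.35), a transporter of very-long-chain fatty acids, and Hacl1 (0.31), a lyase of alpha-oxidation, were higher in RT, whereas the thiolase Acaa1b was lower (−0.44; adjusted p = 0.0336). Of 4 acyl-CoA dehydrogenases of amino acid breakdown, Acad8, the isobutyryl-CoA enzyme of valine breakdown, was higher by 0.28 (adjusted p = 0.0268) and 3 did not pass, while quantile normalization, cyclic loess and the spread covariate left 0 higher. In the flavin supply, Slc25a32 (0.36), a mitochondrial carrier, and Rfk (0.33), riboflavin kinase, were higher of 5 measured, but the methods' t-test, quantile normalization and cyclic loess each called 0 of them. Of 3 genes of ketone body use, 0 passed with limma or the methods' t-test, and 1 (Acat1, 0.25) had an unadjusted p under 0.05. Centering on the array median, leaving out the dimmest transcript clusters, the robust eBayes and averaging transcript clusters each called 1 of the 3 higher. So did leaving out RS-1, RS-3 or RT-5, whereas leaving out RS-2 called 1 lower. Of 17 mitochondrial content genes, Sdha (0.30) and Mdh2 (0.25) were higher, 0 were lower, and the median difference was 0.14. Without RS-4 and RS-6, 0 genes of the peroxisomal, flavin and mitochondrial content lists were called.

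Of the 15 transcriptional regulators of beta-oxidation, 0 were called with limma or the methods' t-test, 1 (Ppard) had an unadjusted p under 0.05, and the median difference was −0.09. Further quantile normalization, cyclic loess and leaving out RS-2 each called 2 lower and 0 higher. Leaving out the dimmest transcript clusters or RT-2 called 1 lower, centering on the array median called 1 higher, and leaving out RS-1 called 1 higher and 1 lower. Ppargc1a, the coactivator PGC1α, lay between 7.41 and 7.59 in RT and between 6.90 and 9.25 in RS (difference −0.51; adjusted p = 0.267). Ppara and Ppard, the receptors named above, had differences of −0.22 (adjusted p = 0.28) and −0.20 (0.122). Of 10 PPAR targets outside the pathway, 3 were higher in RT and 0 lower. Acot2, a mitochondrial acyl-CoA thioesterase, averaged 6.60 ± 0.06 in RT and 5.91 ± 0.46 in RS (difference 0.69; adjusted p = 0.0117), and Plin2, a lipid droplet coat protein, and Txnip, an inhibitor of thioredoxin, were each higher by 0.30. Pdk4 (−0.24; adjusted p = 0.457) and Ucp3 (−0.45; 0.282), PPAR targets that respond to fasting, did not pass. Leaving out RS-4 and RS-6 left 1 of these 10 called, as did the methods' t-test, and the spread covariate left 0.

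Markers of cell types were read beside these results. The 8 skeletal muscle fiber markers had a mean signal of 12.23 to 12.31 in RT and 12.08 to 12.31 in RS, near the top of the value range (0.53 to 13.67), and 0 were called. Of the 9 slow-twitch and the 10 fast-twitch markers, each by its brightest transcript cluster, 0 were called or had an unadjusted p under 0.05, with limma and with the methods' t-test. The slow-twitch marker Tpm3 had 4 transcript clusters, of which 2 were called, but not the brightest. The median difference of the slow-twitch markers was −0.39, and −0.03 without RT-6, while that of the fast-twitch markers was 0.07. By contrast, 8 of 8 macrophage markers (mean signal 5.48 to 5.90 in RT, 4.75 to 5.30 in RS), 7 of 7 fibroblast and matrix markers (8.68 to 9.07 in RT, 7.48 to 8.72 in RS) and 6 of 8 endothelial markers (6.83 to 7.17 in RT, 6.32 to 6.74 in RS) were higher in RT. Of 7 white adipocyte markers 4 were higher (5.04 to 6.23 in RT, 4.73 to 5.13 in RS), and of 8 brown adipocyte markers 1, Cidea, was lower. Of 3 erythrocyte markers, 1 was higher and 1 lower. These counts depended on the setting: the methods' t-test called 7 macrophage, 4 fibroblast, 6 endothelial and 3 white adipocyte markers higher, leaving out RS-4 and RS-6 left 7, 5, 4 and 3, and the spread covariate left 6, 2, 2 and 1, and Cidea was not called in either of these last settings. The endothelial mean followed the members' mean between mice (r = 0.89 and rho 0.96 over 12 mice with group means removed, 0.87 without RS-4 and RS-6). The part of these cells in the members' values was not tested.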

How the data were processed

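Gastrocnemius RNA of 6 RT and 6 RS mice was measured on 12 one-color arrays. The deposited values are log2 signals of 28944 transcript clusters, background corrected, normalized and summarized by the authors with RMA. The statistics paragraph of the methods and the labels name RMA, whereas the array paragraph names its SST-RMA variant, and which of them made the values is not known. Groups and replicate numbers follow the labels, and 0 columns belonged to other samples. Gene symbols came from the platform annotation: 21789 transcript clusters carried 1 symbol, 1621 several and 5534 none. A gene with more than 1 transcript cluster is represented by its brightest. The number of arrays limits the precision, which is given by the SE and the 95% intervals.

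The RT and RS mice were compared with limma 3.58.1 (lmFit, eBayes; R 4.3.3) on the values as deposited, two-sided, with no filter on low signal and no covariate, and p-values were adjusted over all transcript clusters by the Benjamini-Hochberg method. The thresholds (p under 0.05, adjusted p under 0.1) are those of the methods, whose one-way analysis of variance is replaced here by limma's moderated form. Every adjusted p is from limma. Exact permutation tests used all 924 splits of 6 against 6, with a smallest p of 0.00216. The fit was tested on simulated data with 200 changed transcript clusters. The simulated noise was independent between transcript clusters and had the same SD in both groups. It therefore does not cover the wider spread of RS mice or the covariation of genes seen here. Correlations between genes used values with group means removed.

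The members, the 9 companion lists and the 9 marker lists were chosen with earlier results of these data known. Named genes are all members, the called genes of each companion list (up to 3 per direction by size), and the 5 genes most like the members' mean. Cpt1a and other list genes beyond this rule (Cpt2, Cs, Ppargc1a, Ppara, Ppard, Pdk4, Ucp3, Cidea, Acat1, Myh7, Tnnt1, Tpm3) were named after their values were seen. Listed genes without a transcript cluster of their own symbol were not analysed here. The 25 alternatives were further quantile normalization, cyclic loess, centering on the array median, leaving out the dimmest transcript clusters, the methods' own test, a robust eBayes with a trend, weights per array, a replicate block, each array left out, RS-4 and RS-6 left out, the array spread as a covariate, a stricter adjusted p, single-symbol transcript clusters alone, and averaging the transcript clusters that share a gene. Promoter windows are from RefSeq (GRCm38.p6). Gene coordinates are otherwise not given, since the values name no build.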

Additional observations from a re-analysis of the deposited data

How the results depend on the processing

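The count of members called lower was 0 in all 25 alternatives. The count called higher was 0 in the values as deposited and in all alternatives except those that follow. With each array left out in turn it lay between 0 and 3 (2 without RS-1 and 3 without RS-3), and the median difference of the members lay between 0.07 and 0.20. Over all alternatives the median difference lay between −0.04 and 0.22.

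The replicate numbers did not pair the mice, since the correlation of same-numbered RT and RS arrays after removal of group means lay between −0.24 and 0.11. With the replicate block, 1 member (Acaa2) was called higher, and transcript clusters called were 2873 higher and 3174 lower in RT, against 3445 and 3764 without it.

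Signs turned in the following settings, and the cause was not tested. With further quantile normalization the differences were −0.008 for Acadvl and −0.004 for Hadhb. With cyclic loess they were −0.06 for Acadvl, −0.065 for Hadhb, −0.039 for Echs1 and −0.002 for Etfdh. With array weights Hadhb was −0.028. Without RS-4 and RS-6 the values were −0.006 for Acadvl, −0.114 for Hadhb and −0.03 for Echs1. With the array spread as a covariate they were −0.039 for Acadvl, −0.01 for Acadm, −0.047 for Acads, −0.015 for Hadha, −0.184 for Hadhb, −0.103 for Echs1, −0.046 for Hadh and −0.029 for Etfdh. With each array left out in turn, Acadvl lay between −0.01 and 0.14 and Hadhb between −0.02 and 0.15, below 0 without RS-2 (−0.01 and −0.007) and, for Hadhb, without RS-6 (−0.021). Acadl, equal in both groups as deposited, lay between −0.15 and 0.09.

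Over all transcript clusters, centering each array on its median shifted the median difference to 0.06, with 5883 called higher and 2414 lower, leaving out RS-4 and RS-6 left 1649 higher and 1791 lower, the spread covariate 732 higher and 888 lower, and the stricter adjusted p 2092 higher and 2307 lower. The 6 mice a group left 95% intervals of the members that reached from 0.22 to 0.36 on either side of the difference.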
